A study of Mus musculus with 8 samples.

Results

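Postsynaptic density scaffolds are the proteins that hold neurotransmitter receptors and their signalling partners in place at the receiving side of a synapse. The 29 scaffold genes described here were chosen by name from the 55188 genes listed for each library, and all 29 were found, each in 1 row with an accepted value in all 8 libraries. RNA came from the hippocampus, which is required to link a place with a shock, of C57BL/6 mice before fear conditioning. KO-labelled animals are given as knockouts of Pyk2, the focal adhesion kinase relative that responds to calcium and is encoded by Ptk2b, and the comparison group is wild type (WT). The labels call all the mice transgenic and give neither age, sex nor the design of the KO allele. Each group had 2 numbered animals with 2 technical replicates, so the animal was the unit (n = 2 per group). Whether the numbers stand for separate mice is not stated in the labels, and p-values measure the spread between these numbered units.

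At an excitatory synapse the scaffold is built in layers. The membrane-associated guanylate kinases encoded by Dlg1 to Dlg4 lie closest to the membrane and bind NMDA receptors and AMPA receptor auxiliary proteins through their PDZ domains. The SAPAP proteins (Dlgap genes) bind the guanylate kinase domain of the Dlg proteins and, at their other end, the Shank proteins. Shank proteins bind Homer, which reaches the metabotropic glutamate receptors and the stores of intracellular calcium. At inhibitory synapses gephyrin, encoded by Gphn, forms the lattice under glycine and GABA-A receptors instead. Pyk2 itself binds the SH3 domain of PSD-95, the product of Dlg4.

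The labels and libraries were examined first. Ptk2b was at 278 and 269 FPKM (fragments per kilobase of transcript, scaled to a fixed library total) in KO-labelled animals, against 232 and 202 FPKM in the WT animals. The targeted gene was thus not lower in KO-labelled animals (log2 fold change 0.34, SE 0.07, limma adjusted p = 0.158), and a value over the whole gene cannot show whether an exon or the protein is lost. Directions below follow the labels as given, and an exchange of the labels, which was not tested, would reverse every one of them. Of 12 markers of hippocampal fields, all were measured, among them Prox1 of dentate granule cells at 15.9 and 17.4 FPKM in KO-labelled animals and 15.9 and 14.5 FPKM in WT animals. Markers of the choroid plexus, a secretory tissue beside the hippocampus, summed to 312 and 1283 FPKM in KO-labelled animals, against 4387 and 7702 FPKM in WT animals, and all 18 were lower. The tables hold no read totals, and 26483 to 27873 genes were above 0 per library. If the deposited confidence intervals were counting error alone, their widths would correspond to 625 to 7710 fragments, with a median of 2242, behind a scaffold gene in a library.

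The scaffold genes were well expressed and their levels were spread over a wide range. Dlg4 (PSD-95) stood highest at 213 FPKM over the 4 animals, followed by Agap2, which encodes an activator of GTP hydrolysis by Arf proteins, at 206 FPKM. The ranges of these genes overlapped, so their order is not resolved. Dlgap1 at 138 FPKM and Anks1b at 126 FPKM came next. Their ranges also overlapped, although Dlgap1 was above Anks1b within every library. All other members lay at or below 69.6 FPKM, the mean of Baiap2, which encodes the actin regulator IRSp53. Lrrc7, which encodes densin, was lowest at 12.1 FPKM. Set against all 16667 genes tested, the members ran from percentile 63.8 of level for Lrrc7 to percentile 98.5 for Dlg4. FPKM divide by transcript length, so levels can be ranked between genes, and all levels here are sums over the isoforms of a gene.

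**Figure D1:**
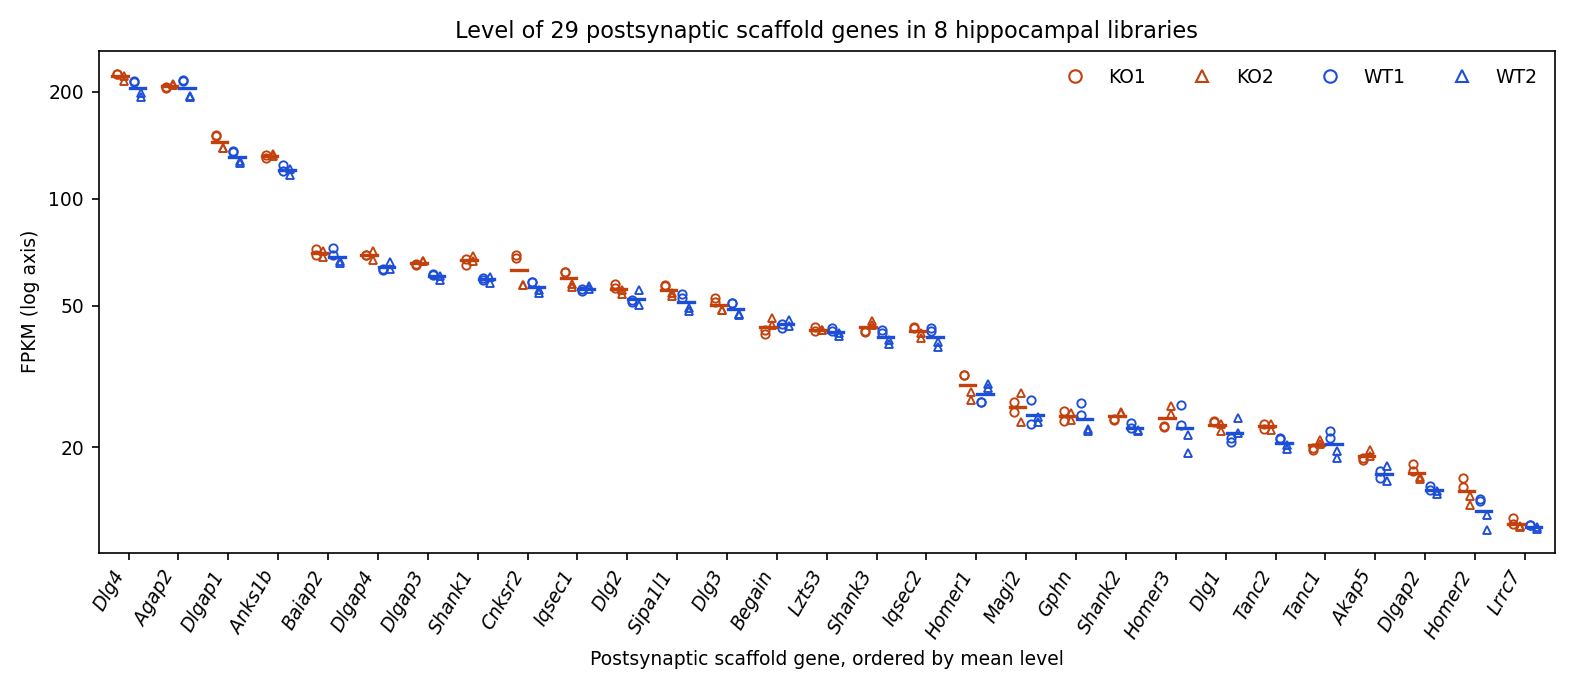
FPKM of the 29 scaffold genes on a log axis, ordered by mean level. Each symbol is 1 library, circles for animal 1 and triangles for animal 2, with KO-labelled animals in orange on the left, WT in blue on the right, and lines at group means; Dlg4 and Agap2 lie near 200 FPKM and Lrrc7 at 12.1 FPKM.

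Most scaffold genes had slightly higher means in KO-labelled animals, by amounts that did not pass the test one by one. The mean was higher for 27 of 29 genes as deposited, for 28 after median-of-ratios scaling and for 26 after quantile normalization, and 0 passed limma over all 16667 genes tested, of which 9 passed (0.0540%), all lower. The median log2 fold change of the members was 0.10, against -0.02 for all genes tested, of which 42.0% were higher. After quantile normalization these medians were 0.08 for the members and 0.03 for all genes, and after median-of-ratios scaling 0.11 and -0.01. At an unadjusted p under 0.05 there were 7 members, all higher (Shank1, Anks1b, Akap5, Dlgap3, Tanc2, Dlgap4 and Dlgap2), or 24.1%, beside 4.11% of all genes tested. That number was 4 without the first KO-labelled animal (beside 2.61% of all genes), 5 without the second KO-labelled animal (4.96%), 6 without the first WT animal (2.44%) and 1 without the second WT animal (1.59%). Adjusted p-values of the members were 0.144 to 0.963. Both KO-labelled animals lay above both WT animals for 14 members (the 7 above with Dlgap1, Dlg2, Shank2, Dlg4, Sipa1l1, Iqsec1 and Magi2), or 48.3%, beside 18.4% of all genes, and 0 members had the opposite separation, beside 30.7% of all genes. With fewer animals to separate, the count was 17 without the first KO-labelled animal, beside 32.0% of all genes, and 22 without the second, beside 29.99%. It was 26 without the first WT animal, beside 30.6% of all genes, and 16 without the second, beside 28.7%. After quantile normalization 15 members were so separated upward, beside 29.8% of all genes.

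Abundant genes were higher more often than all genes together. Of the 6032 genes at or above the level of Lrrc7, 55.5% were higher in KO-labelled animals, 29.6% had both of those animals above both WT animals, 8.42% were higher at an unadjusted p under 0.05, and the median log2 fold change was 0.01. By library, 9 members had all 4 KO-labelled libraries above all 4 WT libraries (Shank1, Shank2, the 4 Dlgap genes, Anks1b, Akap5 and Tanc2), or 31.0%, beside 7.11% of the genes tested.

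**Figure D2:**
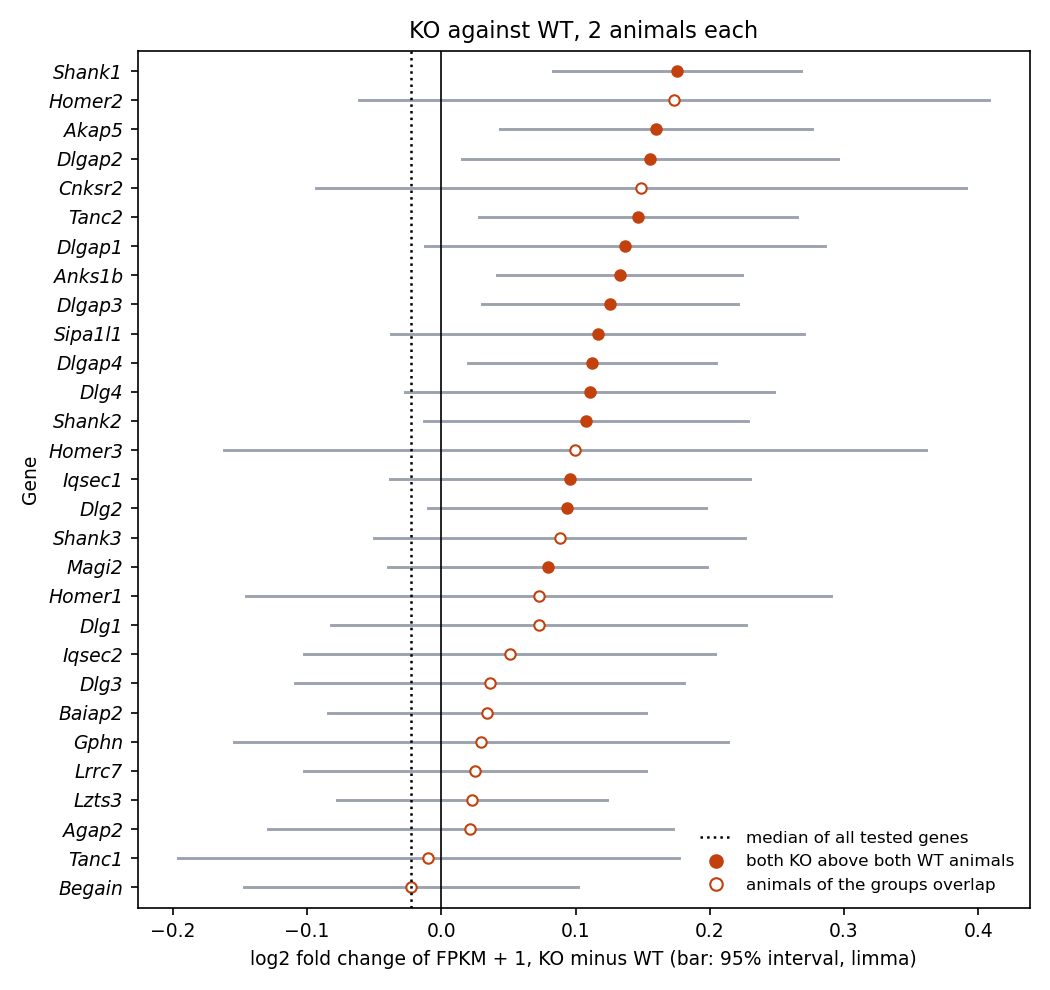
Log2 fold change of FPKM + 1, KO minus WT, for each scaffold gene with its 95% interval from limma (n = 2 animals each). Filled points mark the 14 genes with both KO-labelled animals above both WT animals, and the dotted line is the median of all genes tested, -0.02; the points run from -0.02 for Begain to 0.18 for Shank1.

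Among the Dlg genes, Dlg4 dominated in every library. Dlg4 (ENSMUSG00000020886, chromosome 11, 70016942 to 70047522 in mm10) was at 225, 224, 214 and 221 FPKM in KO-labelled libraries, against 215, 213, 198 and 194 FPKM in the WT libraries. The lowest KO-labelled library lay below the highest WT library, so the groups overlapped by library, although both animal means labelled KO lay above both WT means. Dlg1, which encodes SAP97 (ENSMUSG00000022770, chromosome 16, 31663443 to 31875129), was at 23.7, 23.6, 22.3 and 23.2 FPKM in KO-labelled libraries, against 21.3, 20.7, 21.9 and 24.3 FPKM in WT. Its highest value came from a WT library, and the groups overlapped. The order Dlg4, Dlg2, Dlg3, Dlg1 was the same in 8 of 8 libraries, and Dlg4 exceeded Dlg1 by 9.41 times. Dlg2 (PSD-93, 54.0 FPKM) and Dlg3 (SAP102, 49.8 FPKM) differed by less than their spread over animals. Dlg2 averaged 55.8 ± 1.54 FPKM in KO-labelled animals and 52.2 ± 0.818 FPKM in WT animals, and Dlg3 averaged 50.4 ± 2.35 FPKM in KO-labelled animals and 49.2 ± 2.51 FPKM in WT animals (SD, n = 2 each).

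Dlg4 made up 62.9% and 63.3% of the summed FPKM of the Dlg genes in KO-labelled animals, against 63.3% and 61.4% in WT animals. Dlg3, the member most prominent in early development, held 14.6% and 14.2% in KO-labelled animals, against 15.1% and 14.8% in WT animals. The Dlg3 shares did not overlap between groups, but an exact two-sided permutation test gave p = 0.333, the lower limit of this design. The mean shares of all 4 genes differed between groups by at most 0.699 percentage points. None of the Dlg genes passed the test across all genes: log2 fold changes were 0.11 for Dlg4 (SE 0.05), 0.09 for Dlg2 (SE 0.04), 0.07 for Dlg1 (SE 0.06) and 0.04 for Dlg3 (SE 0.06). With 1 animal left out these ran from 0.05 to 0.17 for Dlg4, 0.07 to 0.12 for Dlg2, 0.01 to 0.14 for Dlg1 and -0.02 to 0.09 for Dlg3. Leaving out the first library of the second WT animal alone gave 0.06 for Dlg2 and 0.04 for Dlg1.

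The SAPAP genes, which link the Dlg layer to Shank, were all separated between groups at the level of single libraries. Libraries of the same animal are technical replicates, so their separation adds no animals to the comparison. Dlgap1 (ENSMUSG00000003279, chromosome 17, 69969073 to 70821413) was at 150.02, 151, 139 and 139 FPKM in KO-labelled libraries, against 135, 137, 128 and 126 FPKM in WT. Every KO-labelled library lay above every WT library, though the animals within each group also differed. Dlgap4 (ENSMUSG00000061689, chromosome 2, 156613705 to 156764363) was at 69.4, 69.4, 67.4 and 71.4 FPKM in KO-labelled libraries, against 63.1, 63.7, 66.4 and 63.4 FPKM in WT. The groups came close here, with 1 WT library near the lowest KO-labelled library.

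Dlgap3, whose loss in mice gives compulsive grooming through the striatum (ENSMUSG00000042388, chromosome 4, 127169204 to 127237022), was at 65.7, 65.3, 67.1 and 66.7 FPKM in KO-labelled libraries. The WT libraries were at 60.9, 61.6, 60.7 and 59.1 FPKM, so neither group reached the other. Dlgap2 (ENSMUSG00000047495, chromosome 8, 14095865 to 14847680) was the lowest of the family, at 18.0, 17.1, 16.3 and 16.5 FPKM in KO-labelled libraries, against 15.2, 15.6, 14.8 and 15.1 FPKM in WT. All 4 members thus had every KO-labelled library above every WT library, beside 7.11% of all genes tested. Their summed level was 303 and 292 FPKM in KO-labelled animals, against 276 and 267 FPKM in WT animals. Log2 fold changes were 0.11 to 0.16, and none passed in limma (adjusted p = 0.238 for Dlgap3, 0.258 for Dlgap4, 0.287 for Dlgap2 and 0.349 for Dlgap1).

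Within the family, Dlgap1 exceeded Dlgap2 by 8.59 times, and the order Dlgap1, Dlgap4, Dlgap3, Dlgap2 held in 8 of 8 libraries. Dlgap4 and Dlgap3 differed by less than their spread. Dlgap1 held 49.7% and 47.6% of the family's summed FPKM in KO-labelled animals, against 49.2% and 47.6% in WT animals, so the family's make-up overlapped while its total stood higher. Only the share of Dlgap2 was separated, at 5.81% and 5.62% in KO-labelled animals against 5.57% and 5.59% in WT animals.

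Shank1 had the smallest p of all the scaffold genes. Shank proteins are the outer platform of the excitatory scaffold, and mutations in their human genes are known in autism. Shank1 (ENSMUSG00000038738, chromosome 7, 44310253 to 44360572) was at 67.7, 65.2, 67.0 and 68.9 FPKM in KO-labelled libraries, against 59.1, 60.1, 58.0 and 60.4 FPKM in WT. No library of one group reached the other. The means were 67.2 ± 1.07 FPKM in KO-labelled animals and 59.4 ± 0.278 FPKM in WT (SD, n = 2 each), 13.2% apart. The log2 fold change was 0.18 (SE 0.04, 95% interval 0.08 to 0.27), and limma gave an adjusted p of 0.144, above the threshold of 0.05. The annotated span of Shank1 overlaps a protein-coding gene on the opposite strand. With no strand setting given, reads from any sequence they share could not be told apart, and whether their exons overlap was not examined.

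Shank2 (ENSMUSG00000037541, chromosome 7, 144001928 to 144424494) was the lowest of its family, at 24.1, 23.9, 24.9 and 25.2 FPKM in KO-labelled libraries, against 22.7, 23.5, 22.3 and 22.3 FPKM in WT. These groups did not overlap by library either, but the gap was smaller than the spread inside each group. Shank3 averaged 43.6 ± 1.75 FPKM in KO-labelled animals and 41.0 ± 1.999 FPKM in WT animals (SD, n = 2 each), and its animals overlapped. The order Shank1, Shank3, Shank2 held in 8 of 8 libraries, with no overlap between neighbours. Shank1 held 50.03% and 49.3% of the family's summed FPKM in KO-labelled animals, against 47.6% and 48.9% in WT animals. Shank3 held 31.9% and 32.5% in KO-labelled animals, against 33.9% and 32.7% in WT animals, and all 3 Shank shares were separated between groups at the smallest exact p of 0.333.

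**Figure D3:**
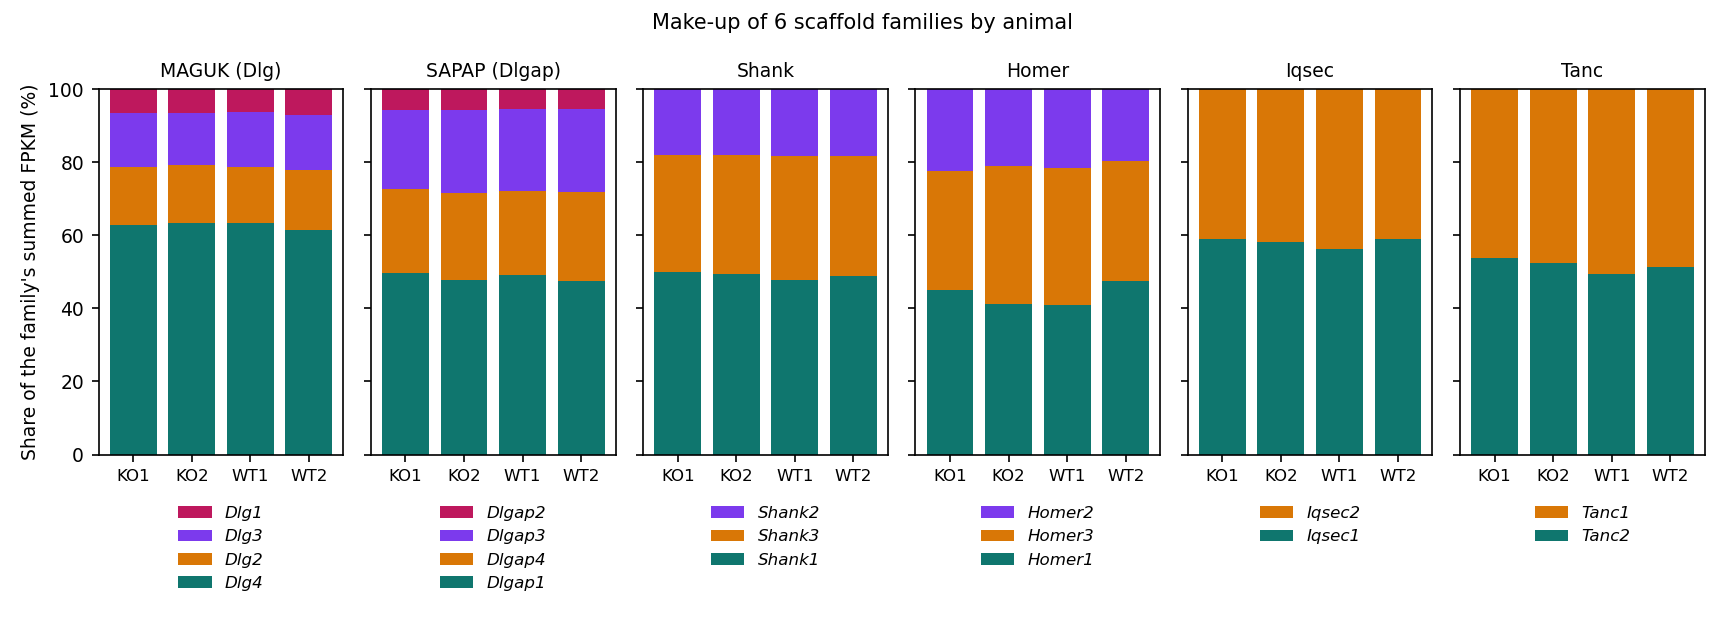
Share of each family's summed FPKM, in percent, held by each paralog in each animal, with KO-labelled animals on the left of each panel and the WT animals on the right. The bars of an animal add up to 100%; Dlg4 holds 61.4% to 63.3% of the Dlg total in every animal, and the shares of Homer1 and Homer3 vary most between animals of 1 group.

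Homer genes showed wide differences between animals of a group. Homer1 (ENSMUSG00000007617, chromosome 13, 93299635 to 93405129) encodes both the long scaffold form and the short activity-induced form Homer1a, which a value per gene cannot separate. It was at 31.9, 31.9, 28.6 and 27.1 FPKM in KO-labelled libraries, against 26.9, 26.8, 30.1 and 29.5 FPKM in WT. The first animal was high in the group labelled KO and the second was high in WT, so the groups overlapped. Homer2 (ENSMUSG00000025813, chromosome 7, 81600481 to 81707527) was at 15.5, 16.5, 13.8 and 14.6 FPKM in KO-labelled libraries, against 14.3, 14.1, 12.9 and 11.7 FPKM in WT. It showed the largest mean difference in percent among the members, 13.7%, with overlapping animals (log2 fold change 0.17, SE 0.09, limma adjusted p = 0.427). Homer3 averaged 24.2 ± 1.80 FPKM in KO-labelled animals and 22.6 ± 2.97 FPKM in WT animals (SD, n = 2 each). Its span overlaps Ddx49, a protein-coding gene on the other strand.

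The share of Homer1 in the family was 45.0% and 41.2% in KO-labelled animals, against 40.8% and 47.6% in WT animals. The order Homer1, Homer3, Homer2 nevertheless held in 8 of 8 libraries, and neighbours in it did not overlap over animals.

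The Iqsec and Tanc pairs were less unequal. Iqsec1 and Iqsec2 encode exchange factors for Arf6 that act on AMPA receptor trafficking. Iqsec1 (ENSMUSG00000034312, chromosome 6, 90656088 to 90988685) was at 62.3, 62.3, 56.7 and 57.7 FPKM in KO-labelled libraries, against 55.8, 54.9, 55.6 and 56.9 FPKM in WT. The first KO-labelled animal stood apart from the other, whose lower library lay below the highest WT library. Iqsec2 (ENSMUSG00000041115, X chromosome, 152144268 to 152225236) was at 43.4, 43.5, 40.7 and 42.0 FPKM in KO-labelled libraries, against 43.4, 42.4, 38.4 and 39.7 FPKM in WT, with overlapping groups. Iqsec1 exceeded Iqsec2 by 1.39 times in mean level, and in 8 of 8 libraries.

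Tanc1 and Tanc2, large ankyrin-repeat scaffolds, were close in level, and neither passed the test. Tanc2 (ENSMUSG00000053580, chromosome 11, 105589986 to 105929304) was at 23.3, 22.6, 23.4 and 22.5 FPKM in KO-labelled libraries, against 21.1, 21.2, 20.4 and 19.8 FPKM in WT, with no overlap. Tanc1 (ENSMUSG00000035168, chromosome 2, 59612042 to 59846149) was at 19.97, 19.7, 21.1 and 20.4 FPKM in KO-labelled libraries, against 22.3, 21.2, 19.6 and 18.7 FPKM in WT, where the WT libraries lay on both sides. The log2 fold change of Tanc1 was -0.01 (SE 0.07), and it turned positive under other scalings, at 0.01 after median-of-ratios scaling and after quantile normalization. Tanc2 was above Tanc1 in 6 of 8 libraries, and the ranges of the pair overlapped. Tanc2 held 53.7% and 52.5% of the pair's summed FPKM in KO-labelled animals, against 49.3% and 51.2% in WT animals, the widest shift among the 18 shares at 2.83 percentage points. Across all families 7 of 18 shares were separated between groups, each at an exact permutation p of 0.333. That p is also the proportion of ways to split 4 animals 2 against 2 that separate fully. Shares within a family sum to a fixed total, so they are not independent, and the Tanc1 and Tanc2 shares mirror each other. The count is therefore no evidence of a change in make-up.

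Of the single scaffolds, Anks1b and Akap5 were separated between groups in every library. Anks1b encodes AIDA-1, a protein that travels from the postsynaptic density to the nucleus (ENSMUSG00000058589, chromosome 10, 89873509 to 90973300). It was at 130.0, 132, 132 and 134 FPKM in KO-labelled libraries, against 119.6, 124, 117 and 121 FPKM in WT. Akap5 encodes AKAP79/150, which anchors protein kinase A and calcineurin beside AMPA receptors (ENSMUSG00000021057, chromosome 12, 76324891 to 76334153). It was at 18.5, 18.7, 19.6 and 18.9 FPKM in KO-labelled libraries, against 17.2, 16.4, 17.7 and 16.1 FPKM in WT. In both genes the libraries of the groups did not overlap. The log2 fold changes were 0.13 (SE 0.04, limma adjusted p = 0.212) for Anks1b and 0.16 (SE 0.05, limma adjusted p = 0.229) for Akap5, so neither passed.

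Sipa1l1, which encodes the Rap regulator SPAR, averaged 55.5 ± 2.37 FPKM in KO-labelled animals and 51.2 ± 3.26 FPKM in WT animals (SD, n = 2 each). Magi2, an inverted guanylate kinase scaffold found at excitatory and inhibitory synapses, averaged 26.0 ± 0.0181 FPKM in KO-labelled animals and 24.6 ± 0.980 FPKM in WT (SD, n = 2 each). Both animal means labelled KO were higher for these genes, but the technical replicates of Magi2 in the second KO-labelled animal were 28.5 and 23.6 FPKM, further apart than the groups. Cnksr2, a scaffold for Ras signalling, was at 68.9 FPKM in the first KO-labelled animal, while the second stood at 57.3 FPKM, against 58.4 and 54.9 FPKM in WT animals, so its difference rested on the first KO-labelled animal.

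Several scaffolds, from the abundant Agap2 to Lrrc7, the lowest member, were close to level between groups. Agap2 averaged 207 ± 2.78 FPKM in KO-labelled animals and 204 ± 15.1 FPKM in WT animals (SD, n = 2 each), with a 95% interval of -0.13 to 0.17 for the log2 fold change, whose sign turned under quantile normalization. Baiap2 averaged 70.5 ± 0.813 FPKM in KO-labelled animals and 68.8 ± 3.26 FPKM in WT animals, with its sign turning under quantile normalization (SD, n = 2 each). Lzts3, which encodes ProSAPiP1, averaged 42.9 ± 0.122 FPKM in KO-labelled animals and 42.2 ± 1.03 FPKM in WT animals (SD, n = 2 each). Begain, which encodes a partner of the Dlg guanylate kinase domain, was the other member with a negative log2 fold change, -0.02 (SE 0.05), at 43.7 ± 2.17 FPKM in KO-labelled animals and 44.4 ± 0.639 FPKM in WT (SD, n = 2 each). Lrrc7 was at 12.2 ± 0.316 FPKM in KO-labelled animals and 11.99 ± 0.133 FPKM in WT (SD, n = 2 each).

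The inhibitory scaffold Gphn (ENSMUSG00000047454, chromosome 12, 78226379 to 78684772) was at 25.3, 23.7, 25.0 and 23.9 FPKM in KO-labelled libraries, against 24.6, 26.7, 22.3 and 22.5 FPKM in WT. WT libraries reached both above and below the range of those labelled KO, and the one at 24.6 FPKM lay inside it. Its log2 fold change was 0.03 with a 95% interval of -0.15 to 0.21, so differences anywhere in that interval are compatible with these 4 animals.

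Differences between groups were a few percent, and so were those between animals of a group. The mean in KO-labelled animals was 1.54% below to 13.7% above the WT mean, with a median of 7.09%. Animals of 1 group differed by a median of 3.91% in the group labelled KO and 6.18% in WT, where 22 of 29 members were higher in the first animal. Technical replicates differed by medians of 1.505% to 2.86% per animal, and by up to 18.9% for single members. Deposited confidence intervals extended a median of 4.22% to each side of a member's value, and 2.28% to 7.999% over all members and libraries. Without the second WT animal 20 of 29 members were higher, against 27 to 28 without any other animal, and the median log2 fold change was 0.07 to 0.12 with any 1 animal left out.

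Neuron markers outside the scaffold were also higher. All 13 measured markers, such as Snap25 and Map2, had a higher mean in KO-labelled animals, with a median log2 fold change of 0.10. Both of those animals lay above both WT animals for 11 markers, or 84.6%. The same held for 18.4% of all genes tested and for 29.6% of genes at or above the level of Lrrc7. Summed scaffold FPKM were 1713 and 1676 in KO-labelled animals, against 1632 and 1549 in WT animals. Summed neuron markers were 3833 and 3720 FPKM in KO-labelled animals, against 3466 and 3489 FPKM in WT animals. The scaffold sum as a percentage of the neuron marker sum was 44.7% and 45.1% in KO-labelled animals, against 47.1% and 44.4% in WT animals, so it overlapped. In bulk tissue a different number of cells of a type and a different amount of RNA per cell cannot be told apart.

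Markers of other tissues differed in the same animals. Besides the choroid plexus, all 5 blood markers were lower, at summed levels of 149 and 158 FPKM in KO-labelled animals against 287 and 317 FPKM in WT animals, and 2 of them passed the test over all genes. All 10 meningeal markers were lower, at summed levels of 41.3 and 71.0 FPKM in KO-labelled animals against 118 and 191 FPKM in WT animals. Of 10 striatal markers 5 were lower and 1 passed, at summed levels of 71.6 and 71.6 FPKM in KO-labelled animals against 104 and 99.0 FPKM in WT animals. Median log2 fold changes of the other marker lists were 0.03 for astrocytes (6 of 10 higher), 0.10 for oligodendrocytes (8 of 10), 0.11 for microglia (8 of 10), -0.09 for endothelium (1 of 10), -0.05 for thalamus (4 of 10) and 0.09 for hippocampal fields (10 of 12). The part that any of these play in the scaffold values was not tested.

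**Figure D4:**
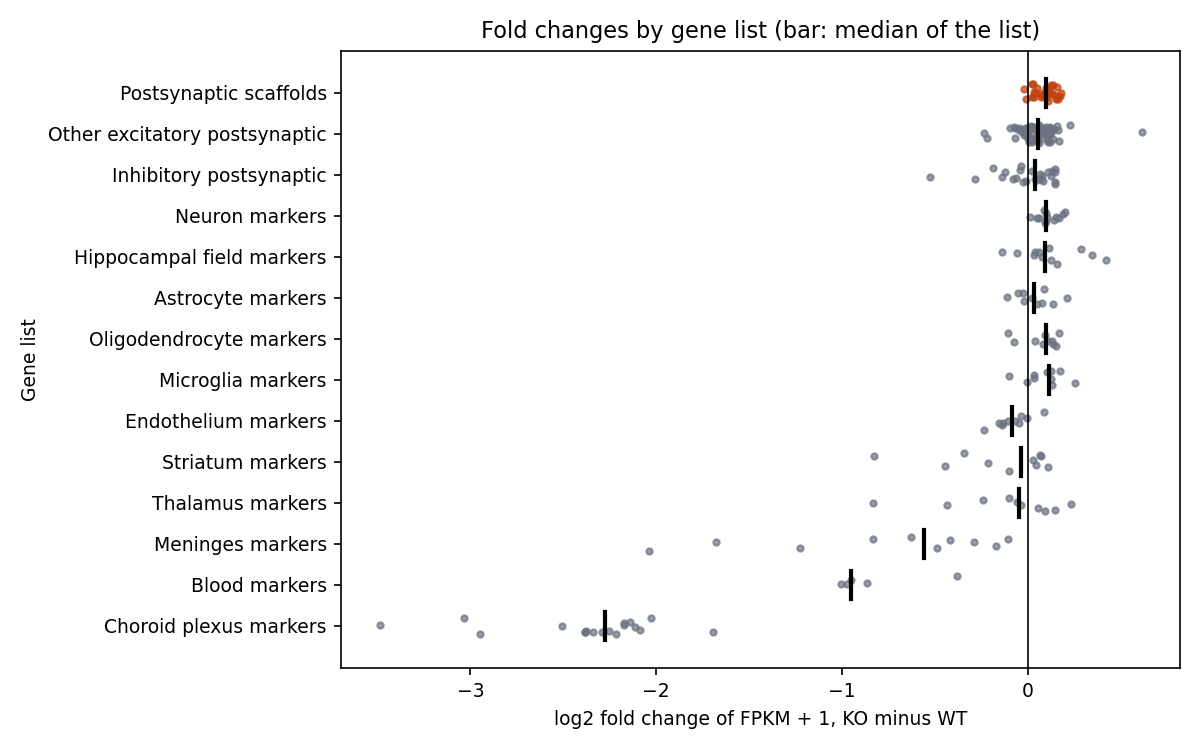
Log2 fold change of FPKM + 1, KO minus WT, for every measured gene of each list, 1 point per gene with a bar at the list median. The scaffold genes (orange) lie between -0.02 and 0.18 around a median of 0.10, the neuron markers around the same median, and the choroid plexus markers around -2.27.

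Other genes of the excitatory postsynapse showed both directions. Of 62 measured genes, including receptor-binding adaptors and actin regulators, 45 were higher and 17 lower in KO-labelled animals. The median log2 fold change was 0.05, and 0 passed over all genes in limma. At an unadjusted p under 0.05, 5 of 62 were higher and 1 was lower. Of all genes tested, 4.11% were higher and 11.4% lower at that p. Of genes at or above the level of Lrrc7, which some of the list lie below, 8.42% were higher at that p. Both KO-labelled animals lay above both WT animals for 26 genes, or 41.9%. The same held for 18.4% of all genes and for 29.6% of genes at or above the level of Lrrc7. They lay below for 4, or 6.45%, beside 30.7% of all genes. The smallest p among those higher belonged to Apba1 (Mint1, an adaptor in the complex with CASK) at 30.2 ± 1.27 FPKM in KO-labelled animals and 25.7 ± 0.605 FPKM in WT (SD, n = 2 each). Arhgap32, which encodes a GTPase-activating protein, followed at 29.8 ± 1.62 FPKM in KO-labelled animals and 26.4 ± 0.460 FPKM in WT (SD, n = 2 each). The activity-induced gene Arc was at 106 and 68.3 FPKM in KO-labelled animals, against 58.0 and 52.7 FPKM in WT animals, the widest difference of the list (log2 fold change 0.61, SE 0.21, limma adjusted p = 0.274). Those lower with the smallest p were Akap9, a centrosomal and Golgi anchor of protein kinase A (7.05 ± 0.5004 FPKM in KO-labelled animals, 8.47 ± 0.439 FPKM in WT), Actn2, an actin crosslinker (4.83 ± 0.869 FPKM in KO-labelled animals, 5.77 ± 0.0531 FPKM in WT), and the polarity gene Mpp5 (8.22 ± 0.143 FPKM in KO-labelled animals, 8.88 ± 0.431 FPKM in WT). The errors are SD with n = 2 in each group.

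Genes of the inhibitory postsynapse showed both directions. Of 25 measured, counting Magi2 again, 14 were higher and 11 lower in KO-labelled animals. The list median of the log2 fold change was 0.04, and 0 passed over all genes in limma. At an unadjusted p under 0.05, 3 of 25 were higher and 3 of 25 lower, beside 4.11% of all genes higher and 11.4% lower. Both KO-labelled animals lay above both WT animals for 10 genes, or 40%, beside 18.4% of all genes. They lay below for 6 genes, or 24%, beside 30.7% of all genes. Insyn1, a component of the inhibitory postsynapse, was at 78.4 and 81.8 FPKM in KO-labelled animals, against 72.2 and 72.4 FPKM in WT animals (limma adjusted p = 0.211). Nsf, an ATPase of membrane fusion, was at 313 and 323 FPKM in KO-labelled animals, against 293 and 291 FPKM in WT animals. Slitrk3, an adhesion protein of inhibitory synapses, was at 21.6 and 22.5 FPKM in KO-labelled animals, against 20.4 and 19.3 FPKM in WT animals. The 3 genes lower at an unadjusted p under 0.05 were Sntb1, Sntb2 and Dmd. The syntrophin genes Sntb1 and Sntb2 had log2 fold changes of -0.53 (SE 0.11) and -0.28 (SE 0.08), at 1.33 ± 0.199 and 3.10 ± 0.0705 FPKM in KO-labelled animals against 2.35 ± 0.285 and 3.999 ± 0.354 FPKM in WT (SD, n = 2 each). Dmd, the dystrophin gene, was at 11.4 and 11.4 FPKM in KO-labelled animals, against 12.6 and 12.4 FPKM in WT animals. Markers of choroid plexus and of meninges were also lower in those animals (above), and their part in the values of these syntrophin genes was not tested.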

How the data were processed

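Per the file headers, the authors deposited FPKM for every gene and library, each with a confidence interval and a status flag. Build mm10 and the aligners Bowtie (version 1) and HISAT appear, with no roles, among the submitters' processing notes. Which program computed FPKM, and whether libraries were stranded, is not given in the sources used here. Per the labels' protocols, Trizol was used and libraries were made from total RNA. FPKM hold no counts, so limma was used in place of a count test.

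Rows repeating a gene were summed, and 12 values with a status other than OK, none of them in a scaffold gene, were treated as missing. Technical replicates were averaged per animal. Testing took genes that reached 0.5 FPKM in 2 animals, as log2(FPKM + 1), which understates changes of low genes, with limma 3.58.1 (trended variance) in R 4.3.3, and p-values were Benjamini-Hochberg adjusted over all genes. All 29 scaffold genes passed the minimum, as they were above it in every animal. In simulated data of 16667 genes this procedure recovered 94.2% of genes changed by 1 and 99.0% of those changed by 2 on the log2 scale. Changes were placed only in genes of higher level, and noise followed the variance trend fitted by limma. Simulated noise was independent between genes. In the deposited data all 18 choroid plexus markers had log2 fold changes of -3.49 to -1.69, and 0 passed. The simulated rates therefore do not hold for genes as variable between animals as these.

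The members and lists were chosen with earlier results of these data known. Values per library are given for the highest and lowest paralogs, Gphn and the 6 genes with the smallest p, and of the other postsynaptic lists the 3 genes with the smallest p in each direction are named. Shank3, Homer3 and the remaining scaffolds are given by animal means. Coordinates are the deposited mm10 ones with starts counted from 1, and match GENCODE M21 for all 29 genes, of which 17 overlap another annotated gene. Alternatives covered scaling, pseudocount, minimum, technical replicates, variance trend, a block on animal number and samples left out. Figures were drawn with matplotlib 3.10.9.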

Additional observations from a re-analysis of the deposited data

How the results depend on the processing

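No scaffold gene passed the threshold under any alternative except the one that treats the 8 libraries as separate units, where technical replicates count as animals and p-values are too small. That setting called 8 scaffold genes, 12 other postsynaptic genes and Ptk2b (log2 fold change 0.33, limma adjusted p = 0.00397). It called 2046 of all 16660 genes (12.3%), 624 of them higher. It had 15 scaffold genes at an unadjusted p under 0.05, beside 9.90% of all genes higher at that p. All KO-labelled libraries lay above all WT libraries for 9 scaffold genes, beside 7.11% of all genes. Scaffold genes at an unadjusted p under 0.05 numbered 3 without a variance trend, beside 2.69% of all genes higher at that p. With the animal number as a replicate block they numbered 12, beside 5.25% of all genes. Same-numbered animals deviated together only weakly (r = 0.11 across 16667 genes, which are not independent), with 2 pairs, so the numbers are not taken as pairing; the block called 0 scaffold genes and 184 genes in all, against 9 without it. With 1 animal left out these numbers ran from 1 to 6 scaffold genes at an unadjusted p under 0.05, 16 to 26 with all KO-labelled animals above all WT animals (beside 28.7% to 32.0% of all genes), 20 to 28 higher, and 0 to 1 other postsynaptic genes called, with the lone animal assumed to vary like the other group. With 1 library left out (chosen after seeing the data) the scaffold counts were 6 to 7, 13 to 15 and 27 to 28.

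Near-level genes changed sign, and the cause was not tested. Tanc1 was at 0.0088 on the log2 scale after median-of-ratios scaling. After quantile normalization Tanc1 was at 0.0092, Baiap2 at -0.0036 and Agap2 at -0.012. With the second technical replicate alone Tanc1 was at 0.0083, Baiap2 at -0.0090 and Gphn at -0.041. With 1 animal left out, log2 fold changes ran from -0.022 to 0.17 for Homer1, -0.015 to 0.087 for Dlg3, -0.072 to 0.027 for Begain, -0.099 to 0.079 for Tanc1, -0.029 to 0.23 for Homer3, -0.016 to 0.12 for Iqsec2, -0.014 to 0.082 for Baiap2, -0.0017 to 0.047 for Lzts3, -0.064 to 0.12 for Gphn and -0.054 to 0.097 for Agap2. With single libraries left out Tanc1 also turned positive, at 0.0076, 0.0067 and 0.00065.

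The order of paralogs by group-pooled mean held in 6 of 6 families with either technical replicate alone. Fold changes of the size seen here, at most 0.18, lie below the sizes simulated, and with 2 animals per group no exact test can go below p = 0.333.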

Other observations

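Excitatory and inhibitory scaffolds were also set against each other, a ratio chosen after the values were seen. Dlg4 exceeded Gphn by 9.15 and 8.89 times in KO-labelled animals, against 8.32 and 8.75 times in WT animals (exact two-sided permutation p = 0.333, the smallest possible with 2 animals each). By library the ratio was 8.88, 9.44, 8.55 and 9.25 in those labelled KO, against 8.72, 7.96, 8.90 and 8.60 in WT, so the libraries overlapped. Shank1 exceeded Shank3 by 1.57 and 1.51 times in KO-labelled animals, against 1.41 and 1.496 times in WT animals (exact two-sided permutation p = 0.333).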
